A study of Mus musculus with 24 samples.

Results

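The effect of environmental enrichment in Aged wild-type (WT) mice was examined by comparing hippocampal RNA-Seq libraries of enriched (WTEE) and standard-housed (WTSH) WT mice. The members were chosen by sample title: WTEE 10, 11, 13, 16, 17 and 21 against WTSH 2, 5, 19 and 23, which makes 10 of the 24 libraries of the series. WTSH 4 and 7, which the study set aside for contamination with ribosomal RNA and low correlation with their group, were held out and are described separately. Each library was made from the hippocampal RNA of 1 experimentally naive male mouse on a C57-Bl/6J background, killed at 21 to 23 months of age. WTEE mice had lived since 18 months of age in rat cages of large size that held toys, tubes, a ladder and a running wheel, and WTSH mice had lived in small groups in standard cages. No mouse of either group carried the MSK1 mutation. The remaining libraries came from mice with a knock-in point mutation by which MSK1 loses its kinase activity (MSK1 KD), bred as a line separate from WT, of which 5 standard-housed (KDSH) and 6 enriched (KDEE) libraries entered the fits. Which mice shared a cage or a litter is not given in the sources used here.

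Environmental enrichment combines exercise, company and novelty, and in rodents it is known for its influence on learning, on dendritic spines and on the survival of newborn granule cells. MSK1 is a nuclear kinase activated through the MAPK cascade, among others downstream of BDNF acting on TrkB, and it phosphorylates the transcription factor CREB and histone H3. CREB binds the cAMP response element (CRE) in the promoters of many activity-regulated genes. In the study, WT mice were compared between housing conditions to see how enrichment alters the transcriptome of the Aged hippocampus when MSK1 is active.

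The counts assigned to genes lay between 46711381 and 51992394 per WTSH library and between 42687669 and 71907130 per WTEE library. The difference in mean depth did not pass the test (exact two-sided permutation test over 210 arrangements, p = 0.205, Benjamini-Hochberg adjusted p = 0.410 over 2 tests). All levels below are normalized counts, that is, counts scaled with TMM to the mean library size. Snap25, a synaptic protein of neurons, had 87623 to 103348 in WTSH and 86561 to 103411 in WTEE, and the 10 neuronal genes chosen to check the tissue had a median log2 fold change of -0.02 between WTEE and WTSH (0.02 without WTEE 10).

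Ttr, which encodes transthyretin and is the most abundant transcript of the choroid plexus, served as the check on choroid plexus carried over at dissection. It stood at 394, 3566, 197554 and 1238 normalized counts in WTSH 2, 5, 19 and 23, and at 245632, 2564, 265747, 2112, 1026 and 1292 in WTEE 10, 11, 13, 16, 17 and 21. Thus 1 standard-housed and 2 enriched libraries were rich in Ttr, and the other libraries of the groups overlapped. On the log2 scale the WTEE mean lay 1.03 above the WTSH mean (exact two-sided permutation test, p = 0.638, adjusted p = 0.638; the smallest p this design allows is 0.00476). Of the 26 choroid plexus genes, all 26 were higher in the WTEE mean, with a median log2 fold change of 0.52, and 0 reached an unadjusted p under 0.05. Their summed level ran from 13349 to 319037 normalized counts in WTSH and from 14832 to 425429 in WTEE. Without WTSH 19 the median of the list was 2.94, and without WTEE 10 it was 0.17, with 22 of 26 higher. No gene of the list was at 0 in all 10 libraries, and Clic6, a channel protein of the choroid plexus, had 71.1 to 3255 normalized counts in WTSH and 52.2 to 5533 in WTEE.

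**Figure D1:**
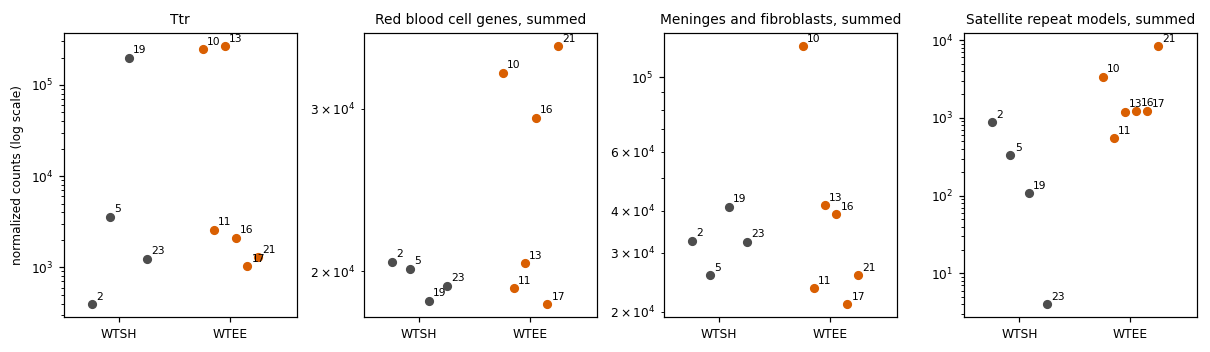
Normalized counts on a log scale of Ttr and of the summed red blood cell, meningeal and satellite repeat lists in each library, with standard-housed WT (WTSH) in grey and enriched WT (WTEE) in orange and the library number beside each point. WTSH 19, WTEE 10 and WTEE 13 are rich in Ttr; WTEE 10, 16 and 21 are high for the red blood cell genes, and WTEE 10 alone for the meningeal genes.

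A single enriched library stood apart from the others. Genes were split by exonic length into 4 classes of equal size. In WTEE 10 the shortest class lay 0.71 log2 units above the longest, relative to the mean of all libraries, against -0.12 to 0.07 in the other 9 WT libraries. In the same library the genes of cytoplasmic ribosomal proteins were 0.88 log2 units above, and the genes of potassium, calcium and sodium channels -0.79 from, their means over all libraries. Rps6ka5, the gene of MSK1 itself, stood at 666 normalized counts in WTEE 10 and at 1016 to 1212 in the other 20 libraries of the fits. Its log2 fold change between WTEE and WTSH was -0.10 ± 0.10 (SE), and 0.000656 without WTEE 10. The study described greater variation in WTEE 10 than in the rest of its group, with a correlation above that of the libraries left out. It kept this library, and results for gene groups are given here with and without WTEE 10. WTSH 2 stood apart in another way. The models of ribosomal and other structural RNA, which poly-A selection should remove, summed to 1248530.0 normalized counts in WTSH 2, 16742, 57152 and 23301 in WTSH 5, 19 and 23, and 173106 to 677129 in WTEE, so that apart from WTSH 2 all enriched libraries were above the standard-housed ones.

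**Figure D2:**
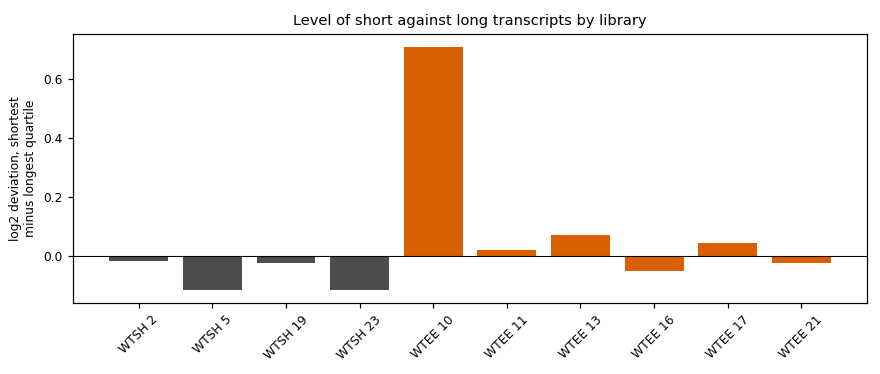
Difference between the median log2 level of the shortest and of the longest of 4 length classes of genes in each WT library, each gene taken relative to its mean over the 21 libraries. WTEE 10 stands at 0.71, and the other 9 WT libraries lie between -0.12 and 0.07.

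Across the transcriptome, enrichment was accompanied by small differences in Aged WT mice. Of 20187 genes tested with edgeR's quasi-likelihood test, 0 (0%) passed an adjusted p under 0.05 with an absolute log2 fold change above 0.38, and the smallest adjusted p was 0.241. DESeq2 called 2 genes, Batf3 and Ighm (0.00529% of its genes with an adjusted p); without WTSH 2 it called 54, and without WTSH 5 or WTSH 19 it called 0. At an unadjusted p under 0.05, 797 genes (3.95%) were higher and 525 (2.6%) lower in WTEE; without WTEE 10 these were 425 (2.12%) and 365 (1.82%), and with the share of structural RNA as a covariate 272 and 131. Every WTEE library lay above every WTSH library for 97 genes (0.481%) and below for 102 (0.505%). The median log2 fold change over all genes was 0.01, with 51.5% of genes above 0, or 49.9% without WTEE 10. The genes described next are the 12 with the smallest unadjusted p in each direction among those with groups that do not overlap and a mean of at least 50 normalized counts. Their separation between groups was part of that choice and is a description. With edgeR the adjusted p was 0.241 for Ighm, 0.445 for Batf3 and 0.651 for the others, so that none of them passed.

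Batf3 and Ighm, both genes of the immune system, rose with enrichment in DESeq2's test, and are described first among the 12 higher genes. Batf3 (ENSMUSG00000026630, chromosome 1, 191097847 to 191108945, plus strand) encodes a bZIP transcription factor of the AP-1 family required for the development of cross-presenting dendritic cells. It stood at 55.2, 31.8, 37.1 and 48.1 normalized counts in WTSH 2, 5, 19 and 23 and from 66.8 to 112 with a median of 74.4 in WTEE. All 6 enriched libraries were above the highest standard-housed library, WTSH 2, and the log2 fold change was 0.90 ± 0.18 (SE), with an adjusted p of 0.0475 in DESeq2. Ighm (ENSMUSG00000076617, chromosome 12, 113418558 to 113422730, minus strand) encodes the constant region of the IgM heavy chain, the antigen receptor of naive B cells. Its levels were 971, 842, 881 and 1071 in WTSH 2, 5, 19 and 23 and from 1187 to 1845 with a median of 1447 in WTEE, a log2 fold change of 0.68 ± 0.12 (SE) with an adjusted p of 0.00170 in DESeq2. The lowest enriched value, that of WTEE 13, still exceeded the highest standard-housed one, that of WTSH 23. Tnfsf13b, the gene of the B cell survival cytokine BAFF, stood at 87.1, 69.6, 86.0 and 91.2 in WTSH and from 101 to 118 with a median of 111 in WTEE, and its log2 fold change was 0.41 ± 0.11 (SE). The WTEE libraries were the less scattered of the groups for this gene. Gimap6, which encodes a GTPase of a family expressed in lymphocytes and endothelium, had 94.1 to 118 normalized counts in WTSH and 119 to 182 in WTEE, separated by the narrow gap between WTSH 23 and WTEE 13.

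Lrg1 (ENSMUSG00000037095, chromosome 17, 56119678 to 56122001, minus strand), a secreted leucine-rich glycoprotein of the acute-phase response and of activated endothelium, had the largest fold change of the 12. It stood at 59.5, 44.7, 51.6 and 56.1 normalized counts in WTSH 2, 5, 19 and 23 and from 71.6 to 293 with a median of 116 in WTEE, with the highest value in WTEE 13. Its log2 fold change was 1.43 ± 0.34 (SE), and the WTEE libraries were widely spread. Slc38a5, a sodium-coupled amino acid transporter found at the blood-brain barrier, stood at 133, 124, 132 and 90.2 in WTSH and from 149.7 to 312 with a median of 248 in WTEE, a log2 fold change of 0.96 ± 0.24 (SE). Bambi, a pseudoreceptor that inhibits TGF-β signalling, had 275 to 317 normalized counts in WTSH and 340.2 to 411 in WTEE. As these are bulk samples, a higher level from more cells of a type cannot be told apart from more RNA per cell.

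The remaining higher genes had other roles. Syndig1, which encodes a transmembrane partner of AMPA receptors at excitatory synapses, stood at 1050.3, 815, 928 and 950.0 in WTSH and from 1057 to 1366 with a median of 1193 in WTEE, with a log2 fold change of 0.36 ± 0.08 (SE). The gap between the groups was small, as the highest WTSH value was 1050.3 and the lowest WTEE value 1057. Syndig1 shares exonic sequence with C530025M09Rik in the annotation, and counting without strand cannot separate such genes. Bok, a member of the Bcl-2 family enriched in hippocampal field CA3, had 3172 to 3673 normalized counts in WTSH and 3847 to 6000.4 in WTEE. Mylk3, a myosin light chain kinase, had 63.4 to 83.9 and 97.2 to 227, Depdc7 had 84.5 to 114 and 119 to 153, and Gm9885, a gene model inside an intron of Ntrk3, had 211 to 245 and 255 to 390.3. The highest value for Bok and for Gm9885 was that of WTEE 10, and the highest for Mylk3 that of WTEE 17.

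**Figure D3:**
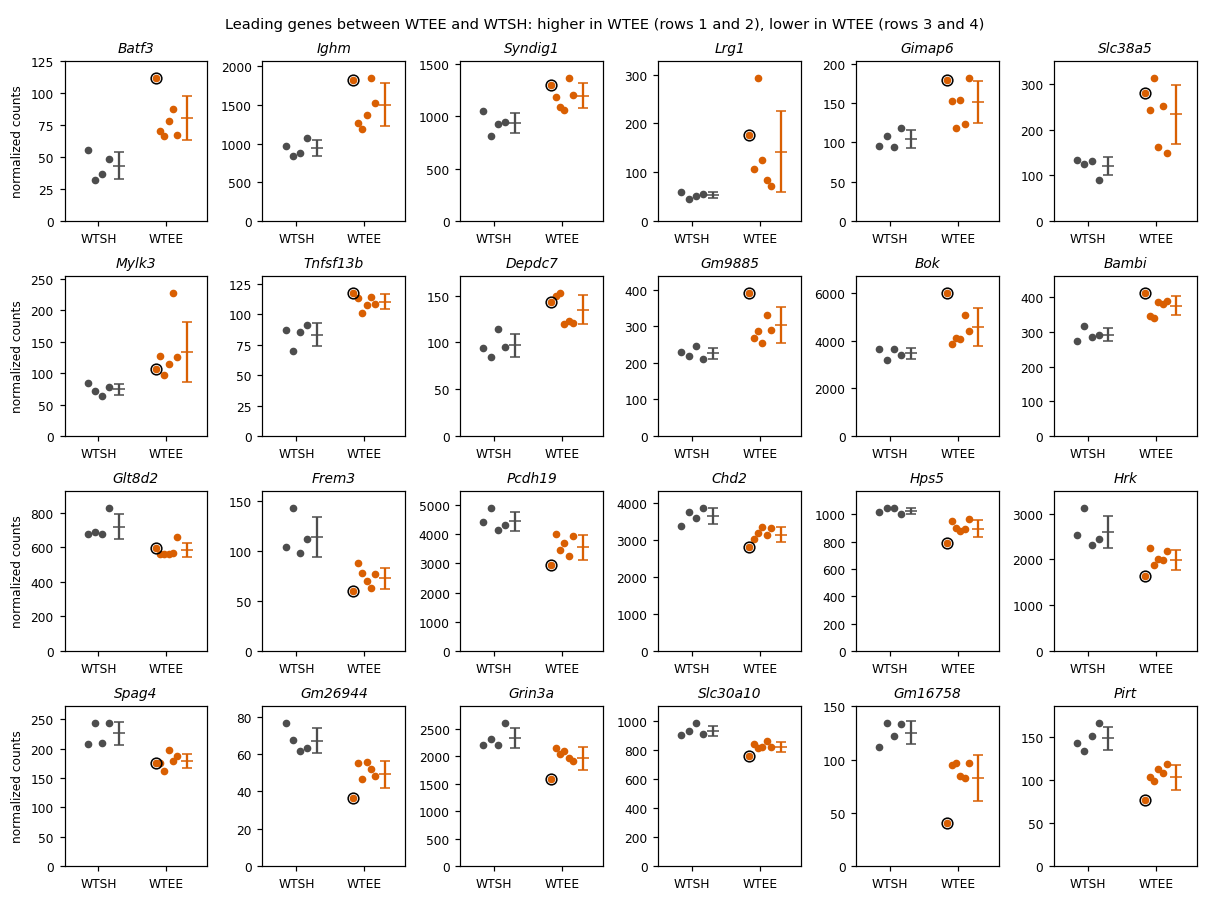
Normalized counts of the 24 leading genes in each library of standard-housed (WTSH, grey, n = 4) and enriched (WTEE, orange, n = 6) WT mice; points are libraries, bars the mean and SD, and the circled point WTEE 10. In each panel all orange points lie on the same side of all grey points, which was a condition of the choice.

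The 12 lower genes included a gene of neuronal adhesion (Pcdh19), of a receptor (Grin3a) and of apoptosis (Hrk). The fold changes of the 12 were smaller, from -0.18 to -0.65 on the log2 scale. Frem3 (ENSMUSG00000042353, chromosome 8, 80611080 to 80695356, plus strand), an extracellular matrix protein, had the largest of them: it stood at 104, 143, 97.7 and 112 normalized counts in WTSH 2, 5, 19 and 23 and from 59.7 to 88.5 with a median of 73.4 in WTEE, a log2 fold change of -0.65 ± 0.16 (SE). Pcdh19, a protocadherin that mediates adhesion between neurons, stood at 4421, 4880.2, 4124 and 4316 in WTSH and from 2933 to 4002 with a median of 3566 in WTEE. Its log2 fold change was -0.32 ± 0.09 (SE), and the lowest value was that of WTEE 10. Hrk, a BH3-only protein that promotes neuronal apoptosis, stood at 2525, 3120.3, 2306 and 2446 in WTSH and from 1630.4 to 2244 with a median of 2000.5 in WTEE, with a log2 fold change of -0.39 ± 0.11 (SE). Grin3a, which encodes the GluN3A subunit of NMDA receptors, stood at 2201, 2312, 2211 and 2602 in WTSH and from 1586 to 2156 with a median of 2004 in WTEE, and its log2 fold change was -0.25 ± 0.08 (SE). The highest WTEE value for Grin3a, 2156, was just below the lowest WTSH value, 2201.

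Chd2, a chromatin remodeller, had 3385 to 3869 normalized counts in WTSH and 2826 to 3370.1 in WTEE, and Hps5, a subunit of a complex for lysosome-related organelles, had 999 to 1043 and 787 to 964. For Slc30a10, a manganese exporter, the ranges were 903 to 984 and 759 to 860.2; for Pirt, a regulator of the channel TRPV1, they were 134 to 166 and 77.1 to 119. The groups adjoined for Chd2, whose highest enriched value lay just below the lowest standard-housed one. The others were Glt8d2 (678 to 827 in WTSH and 562 to 659 in WTEE), Gm26944 (61.5 to 76.5 and 36.6 to 55.8) and Gm16758, a gene model in an intron of Mdga1 (112 to 134 and 40.5 to 97.2). Exonic sequence is shared by Glt8d2 with Tdg, Pcdh19 with Gm26851, Chd2 with 1810026B05Rik and Gm44686, Gm26944 with Pcf11, and Slc30a10 with Gm2061, so that these counts may be split or lost between neighbours.

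Because MSK1 acts through CREB, the promoters of the leading genes were searched for the full CRE, TGACGTCA, a palindrome that reads the same on both strands. The windows were the 300 bases of RefSeq promoters (GRCm38.p6) that reach from 250 bases before to 50 bases after each start. Of the 12 higher genes 9 had such a window and 0 held the motif, and of the 12 lower genes 7 had a window and 1 held it, against 3.22% of the 13091 tested genes with a window. The gene with the motif was Spag4 (ENSMUSG00000038180, chromosome 2, 156065175 to 156070617, plus strand), which encodes a SUN-domain protein. It is shown because it alone carries the motif; the 250 bases before its RefSeq start, chr2:156064963-156065212 on the plus strand, are given with the CRE in capitals.
Spag4: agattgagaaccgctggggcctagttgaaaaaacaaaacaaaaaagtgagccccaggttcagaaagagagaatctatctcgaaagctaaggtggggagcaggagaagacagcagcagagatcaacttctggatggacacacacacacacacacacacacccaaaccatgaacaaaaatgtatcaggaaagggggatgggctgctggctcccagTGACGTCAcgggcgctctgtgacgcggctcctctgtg
Its CRE, at 156065176 to 156065183, begins 37 bases before the RefSeq start. The GENCODE start quoted above, 156065175, comes before the CRE, so in that annotation the motif lies within the gene. Spag4 stood at 208, 243, 210.0 and 244 normalized counts in WTSH 2, 5, 19 and 23 and from 162 to 198 with a median of 178 in WTEE, a log2 fold change of -0.33 ± 0.10 (SE). The motif match is a description of the sequence.

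WTSH 4 and 7, which had no part in the choice of these genes, were scaled together with the other libraries and set beside the enriched ones. For 8 of the 12 higher genes WTSH 4, and for 9 of them WTSH 7, lay below all 6 WTEE libraries; both did for 6. Batf3 was among these, with 36.9 and 31.0 normalized counts against 61.6 in the lowest WTEE library, and so was Lrg1, with 33.2 and 7.75 against 65.8. Ighm had 728 and 1136 against 1095. For Gimap6 the held-out libraries, at 133 and 152, were inside the enriched range. Of the 12 lower genes, 7 had both libraries above all WTEE libraries, among them Frem3 and Hrk. Over all genes whose groups do not overlap, both held-out libraries kept to the standard-housed side for 38 of 97 higher and 52 of 102 lower genes. The same count over all tested genes is not given here, so these counts have no baseline and are a description. In WTSH 4 and 7, 32.2% and 33.0% of counted reads fell on no gene, against 8.41% to 15.7% in the 21 libraries of the fits, so their levels are less certain.

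MSK1 KD mice, which share no library with this comparison, provided a second measurement of enrichment for the same genes. Cage, litter, sequencing lane and time of killing are not given per mouse in the sources used here, and any of them that went with housing in both lines cannot be told apart from enrichment. Of the 12 higher genes 11 were also higher in the KDEE mean than in the KDSH mean, where 50.4% of all genes were, and the median of their log2 fold changes was 0.17 in MSK1 KD mice and 0.51 in WT mice. The WT values are those by which the genes were chosen, whereas the KD values had no part in the choice beyond a shared estimate of the dispersion. At an unadjusted p under 0.05 in the same direction were 2 of the 12, Ighm and Bok, where 5.64% of all genes were. Ighm had 788 to 1126 normalized counts in KDSH and 1179 to 1359 in KDEE, groups that did not overlap, a log2 fold change of 0.48 ± 0.11 (SE). Batf3, at 40.7 to 46.7 in KDSH and 35.9 to 58.5 in KDEE, had 0.18 ± 0.17 (SE), and its groups overlapped. Tnfsf13b and Depdc7 had 0.00 ± 0.10 and -0.03 ± 0.12 (SE), both close to 0.

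All 12 lower genes were also lower in the KDEE mean, where 49.6% of all genes were, with a median of -0.19 against -0.33 in WT mice. Here 6 of 12 had an unadjusted p under 0.05 in the same direction, against 5.98% of all genes. Frem3, for example, had -0.51 ± 0.15 and Hrk -0.36 ± 0.11 (SE). Among all genes with groups that do not overlap in WT mice, agreement was lower. The direction was the same in MSK1 KD mice for 68 of 97 higher genes (70.1%) and 85 of 102 lower genes (83.3%). Their median log2 fold changes in MSK1 KD mice were 0.12 and -0.11. Whether enrichment acted differently in WT than in MSK1 KD mice was tested directly, and 0 of 20187 genes (0%) passed in edgeR (smallest adjusted p = 0.419, 659 genes at an unadjusted p under 0.05), while DESeq2 called 20. For all 20 the log2 fold change in WT mice lay above that in MSK1 KD mice. Which genes these 20 are is not given here. None of the 24 leading genes passed the test of the difference in edgeR. The smallest adjusted p among them was that of Batf3, whose effects differed by 0.72 ± 0.24 (SE), with an adjusted p of 0.730 in edgeR.

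**Figure D4:**
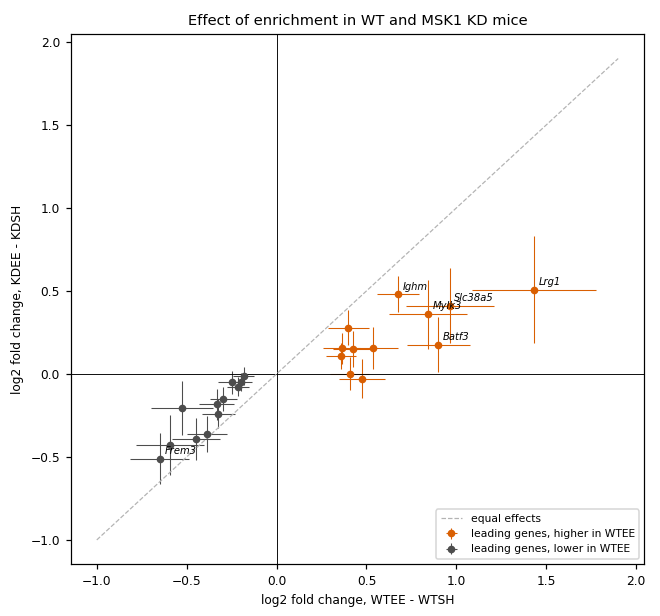
Log2 fold change of the 24 leading genes with enrichment in MSK1 KD mice (KDEE against KDSH, n = 6 and 5) against that in WT mice (n = 6 and 4); bars are SEs, names are given beyond 0.6 in WT mice, and the dashed line marks equal effects. The higher genes lie nearer to 0 in MSK1 KD mice, with medians of 0.17 and 0.51; the WT values chose the genes.

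Gene lists covering pathways and cell types were then described by their counts and medians, none of their members passing edgeR's adjusted test. Counts of members at an unadjusted p under 0.05 are to be read against the 3.95% of all genes that were higher and 2.6% that were lower at that p. For the pathway in which MSK1 acts, 10 of 27 genes were higher in the WTEE mean, with a median log2 fold change of -0.10 (-0.04 without WTEE 10). Its only member at an unadjusted p under 0.05 was Creb1, the gene of CREB, at 2303 to 2685 normalized counts in WTSH and 1996 to 2478 in WTEE, a log2 fold change of -0.14 ± 0.06 (SE). Bdnf stood at 1738, 1690.3, 1618 and 1818 in WTSH and from 1554 to 2277 with a median of 1745 in WTEE, so that the groups overlapped throughout. The growth factors linked to exercise had 11 of 21 genes higher, a median of 0.00 (0.00 without WTEE 10) and 0 at an unadjusted p under 0.05.

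Of 34 immediate early genes, which neuronal activity induces within minutes, 19 were higher in the WTEE mean, with a median of 0.04, or 18 and 0.04 without WTEE 10. The median turned with single standard-housed libraries, from -0.10 without WTSH 5 to 0.17 without WTSH 2. Homer1, whose short form is induced by activity, stood at 4117, 6533, 4322 and 5444 in WTSH 2, 5, 19 and 23 and from 3075 to 4554 with a median of 3719.9 in WTEE. WTEE was lower in the mean, with a log2 fold change of -0.43 ± 0.14 (SE), -0.38 without WTEE 10 and -0.36 ± 0.13 (SE) in MSK1 KD mice. Nr4a3, an orphan nuclear receptor, had -0.29 ± 0.12 (SE) and Ier3 had 0.49 ± 0.20 (SE). For the classical members the groups overlapped: Fos had 2313, 571, 1443 and 2093 in WTSH, with the lowest value in WTSH 5, and from 1242 to 2240.0 with a median of 1609.8 in WTEE, and Arc had 4981 to 13432 and 7594 to 13586.

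Synaptic genes lay slightly below 0 on the log2 scale. For AMPA and NMDA receptors and the postsynaptic density 8 of 35 genes were higher, with a median of -0.09 (-0.03 without WTEE 10) and Grin3a alone at an unadjusted p under 0.05. For synaptic vesicle release 11 of 34 were higher, with a median of -0.06 (0.00 without WTEE 10) and 0 at that p. Of 19 genes of GABA synthesis and GABA-A receptors 8 were higher, with a median of -0.06 (0.00 without WTEE 10). Gabrd, the extrasynaptic δ subunit, had 1158 to 1443 in WTSH and 1392 to 2181 in WTEE, a log2 fold change of 0.30 ± 0.10 (SE). Gabra2, the α2 subunit, had 3438, 6988, 6621 and 6969 in WTSH and from 2888 to 6501 with a median of 3421 in WTEE, with WTSH 2 inside the enriched range and WTEE 11 next to the other standard-housed libraries. The interneuron and neuropeptide list had 23 of 27 genes higher and a median of 0.09, and 15 of 27 and 0.02 without WTEE 10. Within it Pvalb, the calcium buffer of fast-spiking interneurons, had 0.41 ± 0.16, Nos1, neuronal nitric oxide synthase, -0.43 ± 0.16, and Lhx6, a transcription factor of the same interneurons, -0.17 ± 0.06 (SE). The channel list had 6 of 38 genes higher and a median of -0.16 (-0.06 without WTEE 10), and the T-type calcium channels Cacna1g and Cacna1i had -0.29 ± 0.11 and -0.27 ± 0.12 (SE).

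Markers of newborn neurons and proliferation, a process that enrichment is known to influence in the dentate gyrus, had 14 of 23 genes higher and a median of 0.02 (-0.01 without WTEE 10). Dcx, the marker of immature neurons, stood at 1099, 835, 1186 and 1565 in WTSH and from 743 to 1197 with a median of 1075 in WTEE. The proliferation marker Mki67 had 154 to 176 in WTSH and 61.7 to 169.5 in WTEE with a log2 fold change of -0.44 ± 0.20 (SE), and Sox4 had -0.24 ± 0.11 (SE); the groups overlapped for both. The hippocampal subfield markers had 13 of 29 genes higher and a median of -0.04 (-0.02 without WTEE 10), with Bok and Csf2rb2 (-0.32 ± 0.15, SE) at an unadjusted p under 0.05.

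**Figure D5:**
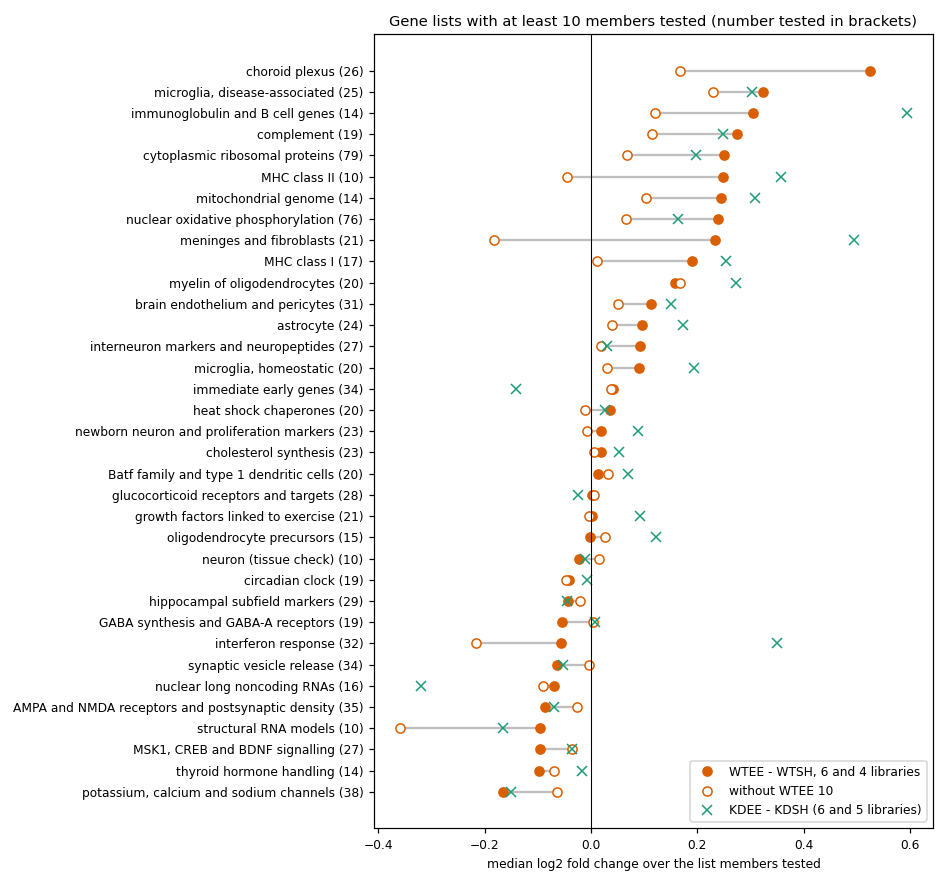
Median log2 fold change over the tested members of each gene list with at least 10 of them, for WTEE against WTSH (filled orange), the same without WTEE 10 (open orange) and KDEE against KDSH (green crosses; the choroid plexus list, at 3.203, is off the scale). The median for disease-associated microglia is 0.32 with and 0.23 without WTEE 10, while that of the meningeal list passes from 0.23 to -0.18.

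Genes of disease-associated microglia were mostly higher in the enriched mean, with and without WTEE 10. Of 25 genes of disease-associated microglia, the state microglia adopt around damage and in ageing, 22 were higher in the WTEE mean, with a median of 0.32, and 7 (28%) reached an unadjusted p under 0.05 in that direction. Without WTEE 10, 22 of 25 were higher, with a median of 0.23, and 3 reached it. Without WTSH 19 the median was 0.52. Relative to the mean of all libraries, the median of the members was 0.18 log2 units in WTSH 19. It was 0.59 in WTEE 10 and at most 0.15 in the other WTEE libraries. In MSK1 KD mice 24 of 25 were higher, with a median of 0.30. Cd14, a co-receptor for lipopolysaccharide, stood at 138, 128, 156 and 138 in WTSH and from 155 to 276 with a median of 178 in WTEE, where only WTEE 16, at 155, fell within the standard-housed range. Its log2 fold change was 0.46 ± 0.14 (SE) in WT and 0.53 ± 0.13 (SE) in MSK1 KD mice. Cst7, a cystatin of this state, had 34.0 to 63.4 in WTSH and 51.4 to 109.9 in WTEE, and Lyz2, lysozyme, had 697 to 1496 and 1027 to 2963. The log2 fold changes were 0.81 ± 0.33 and 0.74 ± 0.31 (SE).

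The homeostatic microglial markers were more mixed, with 14 of 20 higher and a median of 0.09 (0.03 without WTEE 10). The 6 at an unadjusted p under 0.05, all higher, were C1qa, C1qb, C1qc, Ctss, Tyrobp and Trem2. C1qa, a chain of the complement component that tags synapses, stood at 2658, 2801, 3421 and 2906 in WTSH and from 3114 to 7174 with a median of 3521 in WTEE, with the highest value in WTEE 10. Its log2 fold change was 0.48 ± 0.19 (SE), or 0.26 without that library, where 0 of the 20 reached an unadjusted p under 0.05. P2ry12 and Cx3cr1, receptors that define homeostatic microglia, had 1533 to 1990.2 and 2593 to 3488 in WTSH and 1418 to 1815 and 2519 to 2875 in WTEE. The complement list, which holds the same C1q genes, had 17 of 19 higher and a median of 0.27, or 15 of 19 and 0.11 without WTEE 10.

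The medians of the genes of antigen presentation lay close to 0 without that library. MHC class I genes had 15 of 17 higher and a median of 0.19, and 9 of 17 and 0.01 without WTEE 10; Psmb10 was the member at an unadjusted p under 0.05. MHC class II genes had 8 of 10 and 0.25, and 4 of 10 and -0.05 without it. The interferon response had 12 of 32 higher and a median of -0.06, and 4 of 32 and -0.22 without WTEE 10. In MSK1 KD mice its median was 0.35, and 29 of 32 were higher. Of 24 immunoglobulin and B cell genes, 14 passed the filter on low counts. Of these 14, 12 were higher, with a median of 0.30 (0.12 without WTEE 10, 0.59 in MSK1 KD mice). Without WTEE 10, 13 were tested and 9 were higher. Members scarce in WTSH could pass the filter through WTEE, so these counts are a description. Besides Ighm, 3 reached an unadjusted p under 0.05, and they were scarce: Igkc had 10.6 to 22.9 normalized counts in WTSH and 13.9 to 89.8 in WTEE, Ighg2b 0 to 1.81 and 0 to 41.4, and Cd79b 4.97 to 15.4 and 6.60 to 21.4. In the list of the Batf family and type 1 dendritic cells, 11 of 20 were higher with a median of 0.01 (0.03 without WTEE 10); Irf4, a partner factor of Batf proteins, had 14.03 to 21.2 in WTSH and 23.2 to 29.9 in WTEE, groups that did not overlap at a low level, and Cadm1 had -0.15 ± 0.07 (SE). Genes of T and natural killer cells had 4 of 9 higher and a median of -0.05 (-0.10 without WTEE 10), with Trbc2, a constant region of the T cell receptor, at 6.96 to 18.1 in WTSH and 8.81 to 132 in WTEE, the highest in WTEE 10.

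Among astrocyte genes 16 of 24 were higher, with a median of 0.10, and 5 higher and 1 lower reached an unadjusted p under 0.05; without WTEE 10, 14 were higher, the median was 0.04, and 2 and 1 reached it. Lcn2, the iron-binding lipocalin of the acute phase, stood at 22.3, 17.9, 48.9 and 22.05 in WTSH 2, 5, 19 and 23 and at 436, 265, 244, 47.0, 65.9 and 69.3 in WTEE 10, 11, 13, 16, 17 and 21. Only WTEE 16 lay within the standard-housed range, and the log2 fold change was 2.74 ± 0.82 (SE), 2.31 without WTEE 10 and 0.39 ± 0.69 (SE) in MSK1 KD mice. Gfap, the intermediate filament of astrocytes, had 27316 to 38598 in WTSH and 34170.2 to 45645 in WTEE, Vim 2637 to 4332 and 3834 to 5749.8, and Serpina3n 3099 to 4512 and 3680.2 to 5805. Aqp4, the water channel of astrocytic endfeet, was the lower one, with -0.22 ± 0.09 (SE) in WT and 0.14 ± 0.08 (SE) in MSK1 KD mice. The endothelial list, which also holds Lrg1 and Lcn2, had 22 of 31 higher and a median of 0.11, or 21 of 31 and 0.05 without WTEE 10; Icam1, an adhesion molecule for leukocytes, had 111 to 162 in WTSH and 153 to 223 in WTEE, and Tjp1, a tight junction protein, -0.22 ± 0.09 (SE).

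Myelin genes had 18 of 20 members higher and a median of 0.16, and 19 of 20 and 0.17 without WTEE 10. The median was 0.30 without WTSH 19 and 0.09 with the share of structural RNA as a covariate. The summed level of these genes was highest of the 10 libraries in WTSH 19, at 461616 against at most 426880 in WTEE. In MSK1 KD mice 20 of 20 were higher, with a median of 0.27. Mag, a glycoprotein of the inner myelin membrane, stood at 10646, 9074, 13556 and 9913 in WTSH 2, 5, 19 and 23 and from 11337 to 13698 with a median of 12732 in WTEE, with WTSH 19 among the enriched libraries, and Trf, transferrin, had 269 to 458 and 305 to 1168. Mbp, the basic protein of myelin, had 136703 to 196941 and 149258 to 195809. Oligodendrocyte precursors had 7 of 15 higher and a median of 0.00 (0.03 without WTEE 10); Bcas1, a marker of cells that are forming myelin, had 0.29 ± 0.12 and Gpr17, of committed precursors, -0.35 ± 0.13 (SE).

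Red blood cell genes separated a part of the enriched libraries. Their summed level was 20482, 20119, 18578 and 19296 in WTSH and 32824, 29336 and 35075 in WTEE 10, 16 and 21, while WTEE 11, 13 and 17 had 19162, 20404 and 18416. Of 9 genes tested 7 were higher, with a median of 1.17, and 6 reached an unadjusted p under 0.05 (7, 1.19 and 5 without WTEE 10). Hbb-bs, adult β-globin, stood at 1322, 1299, 1206 and 1629 in WTSH and from 1148 to 7905 with a median of 3539 in WTEE, a log2 fold change of 1.49 ± 0.47 (SE) in WT and 1.37 ± 0.44 (SE) in MSK1 KD mice. Hba-a1 and Hba-a2 are near-identical copies, as are Hbb-bs and Hbb-bt, and unique counting can split them. Alas2, the first enzyme of haem synthesis in red cells, had 96.8 to 138 and 92.7 to 571. The part of blood in the results for Batf3, Ighm and the other immune genes was not tested.

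Tissue from outside the hippocampus was measured with further lists. The meningeal and fibroblast genes summed to 25732 to 41080.5 normalized counts in WTSH, 123569 in WTEE 10 and at most 41498 in the other WTEE libraries, and 18 of 21 were higher with WTEE 10 and 3 of 21 without it. Col6a1, a chain of collagen VI, had 2238 to 3059 in WTSH and 1270.2 to 2106 in WTEE, groups that did not overlap. Pituitary hormone genes, of which 5 were tested with a median of 1.37 (1.43 without WTEE 10), were high in single libraries: Gh had 8.50, 29.8, 0 and 1.002 in WTSH and 556, 207 and 499 in WTEE 11, 13 and 21, with 22.2, 3.49 and 1.71 in WTEE 10, 16 and 17. Prl had 698 in WTEE 21 and at most 23.6 elsewhere in WT mice. The part of these tissues in the results for the lists above was not tested.

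Genes of hormones and of the daily rhythm had medians near 0. Of 19 clock genes 5 were higher, with a median of -0.04 (-0.05 without WTEE 10); Per2 stood at 1969.9, 2732, 1673 and 1702 in WTSH and from 958 to 1966 with a median of 1453 in WTEE, a log2 fold change of -0.51 ± 0.17 (SE) in WT and -0.49 ± 0.16 (SE) in MSK1 KD mice, and Per3 had -0.31 ± 0.12 (SE). The time of day at which each mouse was killed is not given in the sources used here. Glucocorticoid receptors and targets had 14 of 28 higher and a median of 0.00 (0.01 without WTEE 10), with Lcn2, Cebpd (0.42 ± 0.15) and Mt1 (0.47 ± 0.19, SE) at an unadjusted p under 0.05, while Fkbp5, a sensitive target of the receptor, had 2060.2 to 3645 in WTSH and 2447 to 2901 in WTEE. Dio2, which activates thyroid hormone, was the member of the thyroid list at that p, at 2189.7, 4804, 2492 and 2308 in WTSH and from 1728 to 2436 with a median of 2149.8 in WTEE; the highest value was that of WTSH 5, and 3 of 14 genes of the list were higher (median -0.10, or -0.07 without WTEE 10). Heat shock chaperones had 14 of 20 higher and a median of 0.04 (8 and -0.01 without WTEE 10), cholesterol synthesis had 14 of 23 and 0.02 (12 and 0.01), and 0 members of either reached an unadjusted p under 0.05.

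Ribosomal and mitochondrial genes, whose transcripts are short and abundant, were almost all higher in the enriched mean. All 79 cytoplasmic ribosomal protein genes and 75 of 76 nuclear genes of oxidative phosphorylation were higher in the WTEE mean, with medians of 0.25 and 0.24, and 0 and 12 reached an unadjusted p under 0.05. Rps14, for example, had 21228 normalized counts in WTEE 10, 10066, 10235, 11063 and 8869 in WTSH and 9805 to 11980.2 in the other WTEE libraries. Without WTEE 10 the medians were 0.07 and 0.07, with 77 of 79 and 72 of 76 still higher and 0 and 1 at that p. The 14 mitochondrially encoded genes tested had a median of 0.25 (0.10 without WTEE 10), and mt-Nd4 had 0.29 ± 0.13 (SE). By exonic length, the median log2 fold change passed from 0.13 in the shortest to -0.08 in the longest of the 4 classes of genes, and from 0.05 to -0.03 without WTEE 10. In MSK1 KD mice the same classes had 0.06 and -0.05. Ribosomal protein genes have many processed copies in the genome, which unique counting can rob of reads.

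Nuclear and repeat-derived RNA completed the lists. Malat1, an abundant nuclear noncoding RNA, stood at 50365, 26018, 38634 and 50884 in WTSH and from 41134 to 137816 with a median of 54706 in WTEE, with the highest value in WTEE 10; its log2 fold change was 0.70 ± 0.26 (SE), 0.36 without that library and -0.42 ± 0.24 (SE) in MSK1 KD mice. Of the 16 nuclear noncoding RNAs 6 were higher, with a median of -0.07 (-0.09 without WTEE 10). The 4 satellite repeat models tested were all higher in the WTEE mean (median 2.81, or 2.68 without WTEE 10) and all lower in the KDEE mean (median -4.38). Gm10800, the most counted of them, had 709, 261, 93.2 and 3.01 in WTSH 2, 5, 19 and 23 and from 454 to 6933 with a median of 1024 in WTEE, and the groups overlapped at WTSH 2. Of the structural RNA models 10 were tested, 4 were higher and the median was -0.10, -0.36 without WTEE 10 and 3.58 without WTSH 2; Gm26870 stood at 53.1, 22.9, 8.15 and 0 in WTSH 2, 5, 19 and 23 and from 15.5 to 496 with a median of 53.4 in WTEE. Rn7s1 and AY036118 of this list, Gm10720 of the satellite list and Rmst of the nuclear noncoding RNAs were at 0 counts in all 10 libraries, and no other list held such a member.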

How the data were processed

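Hippocampi of individual mice were sequenced after poly-A selection with 150 bp paired-end reads. The authors trimmed reads with Skewer, checked them with FastQC 0.11.3, aligned them to GRCm38 (STAR 2.5) and counted uniquely mapped reads per gene without regard to strand (HTSeq 0.6.1p1); the tool versions are from the submitters' processing notes. The deposited values are raw counts per gene, and the summary lines of HTSeq were kept out: no-feature reads made 8.41% to 15.7% of counted reads in the 21 libraries used. As 1 library came from 1 mouse, replicates are biological.

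Genes were filtered with filterByExpr, scaled with TMM and tested with edgeR 4.0.16 (quasi-likelihood, R 4.3.3) in a group-means model over the 21 libraries that the study kept, which share 1 estimate of the dispersion. Genes were called at a Benjamini-Hochberg adjusted p under 0.05 and an absolute log2 fold change above 0.38, the thresholds of the study, whose DESeq2 Wald test (version 1.42.0) was an alternative. The adjusted p-values run over all genes tested. Fold changes are given with SE. Single values were compared by exact permutation. Named were genes called by either tool, the 12 of smallest p in each direction among genes with a mean of at least 50 normalized counts and groups that do not overlap, up to 4 leading and the defining members of each list, Ttr and Rps6ka5. Some list members shown with values beyond these were named after their values were seen. The comparison, its members and the 39 lists were chosen with earlier results of these data known. Coordinates are from GENCODE M21 (GRCm38), matched by symbol for 95.1% of 49568 symbols. The scripts were tested on simulated data. WTSH 4 and 7 and KDSH 6, which the study left out, entered only where stated. Other alternatives were the normalization, the filter, covariates and leaving out each library. Normalized counts do not compare levels between genes of different length.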

Additional observations from a re-analysis of the deposited data

Results flagged for a closer look

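In each group of 4 WTSH or 6 WTEE libraries, a library was noted where its gap to the nearest other library took up more of the group's range than Dixon's 95% critical value. This was tested in 132 groups of values and 28 were noted, where chance gives about 1 in 20. The groups come from the same libraries and some lists share genes, so they are not independent. The number noted is therefore no measure of an excess over that rate.

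Most of the noted values concern WTEE 10. There the summed normalized counts were above those of every other WTEE library for cytoplasmic ribosomal proteins (1195580 against 701528 in the nearest), nuclear oxidative phosphorylation (774367 against 515516), meninges and fibroblasts (123569 against 41498), MHC class I (28857 against 16499), MHC class II (3077 against 1786), disease-associated microglia (268179 against 192093), homeostatic microglia (59766 against 46201), T cell and natural killer genes (735 against 526) and heat shock chaperones (318744 against 279574). They were below those of every other WTEE library for the channels (190867 against 268078), AMPA and NMDA receptors and the postsynaptic density (527881 against 697385), the neuronal tissue check (410002 against 536752), MSK1, CREB and BDNF signalling (146225 against 186177), GABA synthesis and GABA-A receptors (117755 against 151952) and the Batf family with type 1 dendritic cells (44103 against 52352). A sum is led by the most counted members of a list. By the median log2 deviation of its members, the Batf list was highest of WTEE in WTEE 10. It stood there at 0.17, and at most at 0.07 in the other WTEE libraries. Rps6ka5 had 666 normalized counts in WTEE 10 against 1072 in the nearest library, and Gm16758 had 40.5 against 83.0.

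In WTSH 19 the summed normalized counts were 319037 for the choroid plexus against 17540.3 in the nearest WTSH library, 291816 for thyroid hormone handling, a list that holds Ttr, against 111428, 461616 for myelin against 328214 and 32676 for complement against 24593; Ttr itself had 197554 against 3566. Structural RNA models had 1248530 in WTSH 2 against 57152, and pituitary hormones had 129 in WTSH 23 against 140.2, the lowest of WTSH. Satellite repeat models had 8334 in WTEE 21 against 3366. Among the leading genes, Mylk3 had 227 normalized counts in WTEE 17 against 127, and Glt8d2 had 827 in WTSH 23 against 691 and 659 in WTEE 21 against 597.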

How the results depend on the processing

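No paired analysis was possible because each mouse has a number of its own. The 24 leading genes were chosen for groups that do not overlap, which fixes their direction when a library is left out. Their sizes varied, with Batf3 between 0.75 and 1.04 and Ighm between 0.61 and 0.74 on the log2 scale over 31 alternatives. Of 56 genes followed, those 24 included, 2 changed direction. These were Ttr (-0.30 with the structural RNA covariate, -0.0039 without WTEE 13) and Rps6ka5 (0.049 without the 5 libraries above 100000 normalized counts of Ttr, a choice made after seeing the data, and 0.00066 without WTEE 10); without single libraries they ranged from -0.0039 to 5.64 and from -0.15 to 0.00066. The count of 0 genes called became 2 with DESeq2 and 1 with all 24 libraries (Batf3) and ranged from 0 to 1 when single libraries were left out (1, Ighm, without WTEE 13). In DESeq2 it ranged from 0 to 54: 54 without WTSH 2, 10 without WTEE 16, 3 without WTEE 21, 2 without WTEE 13, 1 without WTEE 10, 11 or 17 or WTSH 23, and 0 without WTSH 5 or 19. The cause was not tested. Genes higher at an unadjusted p under 0.05 (797) numbered 1238 with DESeq2, 1589 with no filter, 2007 with all 24 libraries, 399 with WT libraries only, which leaves fewer samples, and 272 with the structural RNA covariate, and ranged from 425 to 1304 without single libraries (425 without WTEE 10, 493 without WTSH 5, 520 without WTSH 23, 1304 without WTEE 21). Lower genes (525) numbered 1624, 162 and 131 with all 24 libraries, WT only and the covariate, and ranged from 250 to 1059 (250 without WTSH 5, 304 without WTSH 23, 1059 without WTEE 21). For the difference between WT and MSK1 KD effects the count was 0 under each edgeR alternative, leaving out any library included, and 20 with DESeq2. Genes higher with no overlap (97) numbered 172 with no filter, 64 with at least 10 counts in every library and 42 with all 24; those lower (102) numbered 51 with all 24. A library less widens these counts by construction, to 119 to 445 and 129 to 399: they exceeded 1.5 times the count without WTSH 2 (445 and 299), WTSH 19 (430 and 330), WTEE 21 (247 and 399), WTEE 16 (221 and 182), WTSH 23 (177 and 154) and WTSH 5 (170 and 172), and for higher genes without WTEE 13 (148). The log2 difference in Ttr ranged from -0.12 (without WTSH 2) to 2.87 (without WTSH 19). The difference in depth of 6.66e+06 counts ranged from 3.39e+06 to 9.23e+06 counts, the latter without WTEE 21 (exact permutation p = 0.0238), and was 1.64e+07 with all 12 WT libraries (exact permutation p = 0.0390). Of the 39 list medians, 8 moved by over 1 SD of the WT libraries under some alternative.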

Other observations

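A class of gene models, noticed after the values were seen, made up more of the higher genes than of all genes. Models of the annotation class TEC, provisional transcripts that await experimental evidence, of which 62.5% lie inside an intron of another gene, were 824 of the genes tested (4.08%). Among genes higher at an unadjusted p under 0.05 they were 168 of 797 (21.1%), and among lower ones 20 of 525 (3.81%). Without WTEE 10 they were 108 of 425. Their median log2 fold change was 0.09 in WT and -0.36 in MSK1 KD mice. Relative to the mean of all libraries, the median of the class was highest in WTEE 21 and 17, at 0.45 and 0.34, where 13.5% and 13.3% of counted reads fell on no gene, against 10.2% to 11.5% in the other WTEE libraries. WTSH 2, with the highest such share of the 21 libraries, 15.7%, stood at 0.15. The class was lowest of WTEE in WTEE 16, at -0.04, and ran from -0.11 to 0.15 in WTSH. In the held-out WTSH 4 and 7, with the 24 libraries scaled together, it was 0.89 and 0.80. The part of reads from introns in these counts was not tested.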
